A study of Mus musculus with 6 samples.

Results

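The genes described here are 10 epithelial host defence genes of the mouse colon, read in 6 RNA-seq libraries of colon tissue. They were listed by name for their known roles and comprise the secreted lectins Reg3b, Reg3g and Reg4, the goblet cell protein Retnlb, the bacteria-binding surface protein Lypd8, the iron-withholding protein Lcn2, the oxidant-producing enzymes Nos2 and Duox2 with the Duox2 partner Duoxa2, and the acute phase protein Saa3. All 10 were among the 24517 genes counted, and all 10 passed the filter on low counts that left 16347 genes for testing. The 3 control libraries came from Nsd2fl/fl mice, controls that carry floxed Nsd2, a histone H3K36 methyltransferase gene. The 3 knockout libraries came from Nsd2ΔIE mice, which had lost Nsd2 in the intestinal epithelium through Villin-Cre, a recombinase driven by an epithelial promoter, so that by design Nsd2 is left intact in the stroma, muscle and immune cells of the same tissue piece. Both groups had a C57BL/6J background and had received HFCD, a diet rich in fat and cholesterol, over 16 weeks, and no group on normal chow was analysed here. The question was which genes of the colon differ with intestinal loss of Nsd2 under this diet.

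The epithelium of the colon faces a dense bacterial community across a mucus layer, and it defends itself by secreting proteins and oxidants into that layer. The Reg3 lectins bind the bacterial wall and hold bacteria away from the surface, and they are induced by microbial sensing and by interleukin 22 through STAT3. The DUOX and inducible nitric oxide enzymes release hydrogen peroxide and nitric oxide, and the acute phase proteins rise in inflamed tissue. Many of these genes are known to be expressed unevenly along the length of the gut.

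The libraries were of similar depth, between 38041832 and 38604680 counts. Nsd2 itself was at 47.8, 59.1 and 68.9 CPM (counts scaled to library depth) in Nsd2fl/fl replicates 1 to 3 and at 24.5, 23.1 and 27.4 CPM in Nsd2ΔIE, without overlap, which fits the labels; its adjusted p was 0.302. The genotypes also differed in sex-linked transcripts: the 5 genes past an adjusted p of 0.05 were Xist, at 21217 to 24234 counts in Nsd2ΔIE and 0 to 4 in Nsd2fl/fl, and 4 Y-linked genes with the opposite pattern, so that in every comparison below genotype and these sex-linked differences cannot be told apart. The epithelial markers Epcam, Cdh1, Vil1, Krt8, Krt18 and Krt19 summed to between 8852 and 14330 CPM in Nsd2fl/fl and between 8343 and 9892 CPM in Nsd2ΔIE, and all 6 had a lower fitted level in Nsd2ΔIE, by a median of -0.32 on the log2 scale. None of the 6 passed the test, and in tissue RNA fewer cells of a type and less RNA per cell cannot be told apart. The libraries were further spread by Hoxb13, a homeobox gene of the distal colon and rectum, at 269.8, 0.477 and 233 FPKM (fragments per kilobase of gene, scaled to library depth) in Nsd2fl/fl replicates 1 to 3 and at 233, 3.73 and 20.6 FPKM in Nsd2ΔIE. Thus 2 Nsd2fl/fl libraries and 1 Nsd2ΔIE library had high Hoxb13, and the other 3 had low Hoxb13. Hoxd13 had the same split, with 937, 0 and 1379 reads in Nsd2fl/fl and 455, 0 and 7 in Nsd2ΔIE. Hoxa13 did not separate these sets. It was at 13.8, 2.63 and 10.2 FPKM in Nsd2fl/fl and at 14.3, 4.42 and 10.7 FPKM in Nsd2ΔIE. Its level in Nsd2ΔIE replicate 3, of low Hoxb13, was thus above that in Nsd2fl/fl replicate 3, of high Hoxb13. The stretch of colon sampled was not given in the labels.

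None of the 10 genes passed an adjusted p of 0.05 between the genotypes in edgeR's quasi-likelihood test, beside 0.0306% of all genes tested, and DESeq2 called none of them either. At an unadjusted p under 0.05 the count was 2 of 10, Retnlb and Duoxa2, both lower in Nsd2ΔIE, beside 11.1% of all genes tested. The fitted level was lower in Nsd2ΔIE for 8 of the 10 and higher for 2. Their median log2 fold change was -1.91, against -0.04 over all genes, of which 9202 were lower and 7145 higher. Without Nsd2fl/fl replicate 2 the median was -0.32 and 6 of the 10 were lower, and with limma-voom on all libraries it was -0.62 and 7 were lower; these fits were summarised after the values had been seen. The libraries of the genotypes did not overlap for 1 of the 10, Lypd8, beside 18.7% of all genes tested. Most of these genes varied widely among the 6 libraries, a spread taken over both genotypes together. The standard deviation (SD) of log2 CPM over the 6 libraries was 0.27 for the median gene, and 7 of the 10 genes were among the 10% of genes with the largest SD, 4 of them among the top 1%. Reg3b, with an SD of 6.86, had rank 1 among all 16347 genes, and Reg3g, with 4.41, had rank 12.

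**Figure D1:**
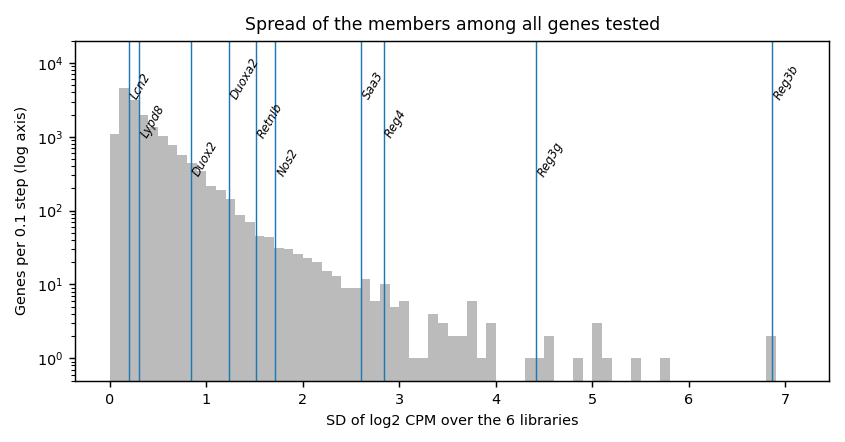
Histogram of the SD of log2 CPM over the 6 libraries for all 16347 genes tested (x axis, SD on the log2 scale; y axis, number of genes per step, log axis), with a blue line at each of the 10 genes. Lcn2 (0.20) and Lypd8 (0.31) lie near the median gene at 0.27, whereas Reg3g (4.41) and Reg3b (6.86) lie at the far right.

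Reg3b and Reg3g are genes of the C-type lectin family in the same cluster on chromosome 6 (GRCm38, 78370885 to 78373466 and 78466269 to 78468874). Their upstream sequences are shown because these genes and Saa3 had the same 3 highest libraries, and that of Reg4 because those libraries were its lowest. Each line gives the 250 bases before the RefSeq start site (GRCm38.p6), 5′ to 3′ on the gene's strand, with matches to searched motifs in capitals. These were the TATA box TATAAA, the STAT site TTCNNNGAA, the C/EBP site TTGCNNAA and the NF-kB site, on both strands.
Reg3b, chr6:78370635-78370884, plus strand: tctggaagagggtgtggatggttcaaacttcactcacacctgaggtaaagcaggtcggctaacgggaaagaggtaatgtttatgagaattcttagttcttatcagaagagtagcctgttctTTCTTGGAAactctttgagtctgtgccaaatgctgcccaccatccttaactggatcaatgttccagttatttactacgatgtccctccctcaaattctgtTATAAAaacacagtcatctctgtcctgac
Reg3g, chr6:78468875-78469124, minus strand: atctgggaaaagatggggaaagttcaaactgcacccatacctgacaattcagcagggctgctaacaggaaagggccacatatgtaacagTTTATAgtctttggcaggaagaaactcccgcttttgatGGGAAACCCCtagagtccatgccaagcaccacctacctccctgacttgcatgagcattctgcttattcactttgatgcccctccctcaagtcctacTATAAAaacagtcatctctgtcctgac
Saa3, chr7:46715677-46715926, minus strand: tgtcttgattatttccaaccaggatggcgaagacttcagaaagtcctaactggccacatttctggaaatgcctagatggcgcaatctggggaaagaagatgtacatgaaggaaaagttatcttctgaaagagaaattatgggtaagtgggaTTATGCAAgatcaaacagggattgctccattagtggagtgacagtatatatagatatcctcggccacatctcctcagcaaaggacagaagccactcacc
Reg4, chr3:98221906-98222155, plus strand: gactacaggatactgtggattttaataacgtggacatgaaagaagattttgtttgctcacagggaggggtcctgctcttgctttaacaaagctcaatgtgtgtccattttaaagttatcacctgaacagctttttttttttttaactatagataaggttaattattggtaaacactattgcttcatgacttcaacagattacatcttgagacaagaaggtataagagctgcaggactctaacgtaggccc
The upstream sequences of Reg3b and Reg3g were identical at 68.4% of 253 aligned columns, and the other pairs of these 4 genes at 45.7% to 50.3%. Reg3b and Reg3g each hold a TATA box near the start site, beginning at -29 in Reg3b and -27 in Reg3g. Reg3b also has a STAT match at -129, and Reg3g has an NF-kB match at -123, which reads on both strands, and a second TATAAA on the minus strand at -161. Saa3 has a C/EBP match on the minus strand at -99. The RefSeq start sites used for Saa3 and Reg4 lie inside the gene intervals given for them below. The Saa3 window lies wholly inside its interval, and the Reg4 window reaches into its own. No motif matched the Reg4 window, a statement about these letters alone. Among 32851 RefSeq promoters of 300 bases, 13.6% held TATAAA, 8.3% the STAT site, 10.8% the C/EBP site and 8.46% the NF-kB site, so that a match by itself is common. RefSeq promoters were found for 8 of the 10 genes, the others being Retnlb and Nos2.

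Reg3b, a lectin that kills mainly Gram-negative bacteria, ran from nearly silent to a top transcript of the colon. It was at 0.104, 7967 and 15.3 FPKM in Nsd2fl/fl replicates 1 to 3 and at 0.0342, 1583 and 385 FPKM in Nsd2ΔIE replicates 1 to 3. In each genotype replicate 2 was highest and replicate 1 lowest, and the groups overlapped over nearly the whole range. Replicate 1 of Nsd2fl/fl held 3 reads of Reg3b and replicate 1 of Nsd2ΔIE held 1, at or under a floor of 3 counts. In Nsd2fl/fl replicate 2, by contrast, 231689 reads fell on Reg3b, which was 0.605% of all counts (95% exact Clopper-Pearson interval 0.602 to 0.607, counting error only) and rank 3 of all genes by FPKM. The means were 2661 ± 4596 FPKM in Nsd2fl/fl and 656 ± 826 FPKM in Nsd2ΔIE (SD, n = 3 each). The log2 fold change of -2.19 had an SE of 3.08 and an adjusted p of 0.817, and its sign was not stable. Leaving out Nsd2fl/fl replicate 2 gave 6.28 and leaving out Nsd2ΔIE replicate 2 gave -4.01, and with all 6 libraries kept it was 0.39 in limma-voom and 0.71 and 0.57 on the log2 FPKM scales with a pseudocount of 1 and 0.1.

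Reg3g, the close relative that acts on Gram-positive bacteria, had the same order of libraries at lower levels. It was at 0.748, 1395 and 11.4 FPKM in Nsd2fl/fl and at 0.604, 197 and 51.2 FPKM in Nsd2ΔIE, a 2310-fold range from lowest to highest library. Again replicate 2 of each genotype was highest and replicate 1 lowest. Its log2 fold change was -2.67 (SE 2.47, adjusted p = 0.722), and 3.66 without Nsd2fl/fl replicate 2. The ratio of Reg3b to Reg3g FPKM was not fixed across libraries. It was 5.71, 8.03 and 7.54 in the 3 libraries of low Hoxb13 and 1.35 in Nsd2fl/fl replicate 3. In the remaining libraries Reg3b had 3 and 1 reads where Reg3g had 22 and 18. The genes are alike in sequence and the handling of reads that align to several places was not stated, so the split of reads between them is uncertain.

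Reg1, Reg3a and Reg3d, further Reg genes of the same chromosome 6 cluster, were too low to test and were looked up after their values had been seen. Reg1 had 73 reads in Nsd2fl/fl replicate 2, 21 in Nsd2ΔIE replicate 2, 2 in Nsd2ΔIE replicate 3 and none in the other libraries. Reg3a had 99, 54 and 4 reads in those same libraries and none elsewhere. Reg3d had 1 read in replicate 2 of each genotype and none elsewhere. Every library in which they were detected was thus of low Hoxb13.

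**Figure D2:**
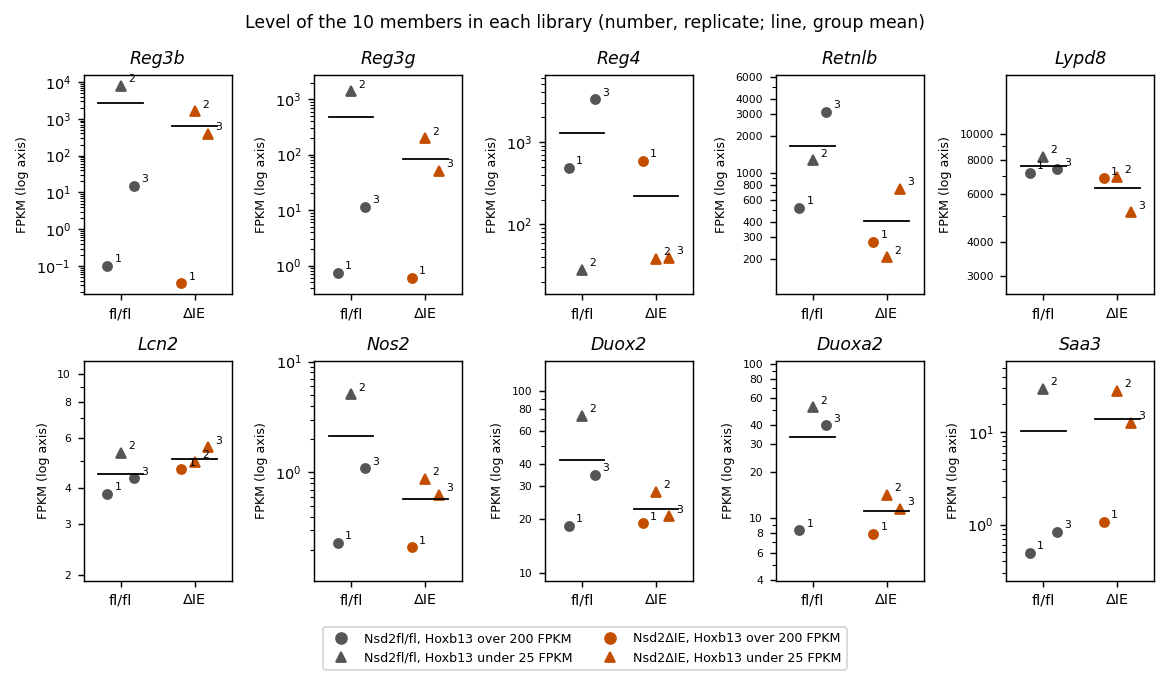
FPKM (log axis, scaled for each gene) of the 10 genes in each library, with Nsd2fl/fl in grey and Nsd2ΔIE in orange, circles for the 3 libraries of high Hoxb13 and triangles for the 3 of low Hoxb13, replicate numbers beside the points and a line at the group mean. The genotypes separate only for Lypd8, while for Reg3b, Reg3g and Saa3 all triangles lie above all circles, and for Reg4 all lie below.

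Reg4, a lectin of deep crypt secretory and enteroendocrine cells, lies on chromosome 3 (98222138 to 98236748) and had its lowest levels where Reg3b had its highest. It was at 488, 28.2 and 3287 FPKM in Nsd2fl/fl and at 587, 38.1 and 39.1 FPKM in Nsd2ΔIE. The 3 libraries between 28.2 and 39.1 FPKM were those with the highest Reg3b, and the genotypes overlapped. Nsd2fl/fl replicate 3 stood apart at 0.341% of all counts (95% interval 0.340 to 0.343), rank 12 by FPKM. The fitted log2 difference was -2.65 (SE 1.72, adjusted p = 0.621), -0.27 without that library and -5.18 without Nsd2ΔIE replicate 1. Per FPKM, Reg3b exceeded Reg4 by 282-fold in Nsd2fl/fl replicate 2, 41.6-fold in Nsd2ΔIE replicate 2 and 9.85-fold in Nsd2ΔIE replicate 3, whereas Reg4 was the higher gene in the 3 libraries of high Hoxb13.

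Retnlb encodes RELMβ, a protein that goblet cells secrete into mucus and that binds bacterial membranes (chromosome 16, 48816856 to 48818892). It was at 517, 1259.6 and 3149 FPKM in Nsd2fl/fl and at 273, 204 and 742 FPKM in Nsd2ΔIE. The 2 highest libraries were Nsd2fl/fl, and the groups overlapped only in that Nsd2ΔIE replicate 3 lay above Nsd2fl/fl replicate 1. Means were 1642 ± 1357 and 406 ± 292 FPKM (SD, n = 3 each). The edgeR fit gave a log2 fold change of -2.19 (SE 0.76, 95% interval -4.00 to -0.37, adjusted p = 0.378). The sign stayed negative in all 16 alternative fits, between -2.91 and -1.28, and 13 of these fits had p under 0.05 before adjustment. It missed that level without Nsd2fl/fl replicate 3, Nsd2ΔIE replicate 1 or Nsd2ΔIE replicate 2. Goblet cell markers (Muc2, Fcgbp, Clca1, Agr2, Spdef and Tff3) summed to between 26050 and 46670 CPM in Nsd2fl/fl and between 16600 and 26400 CPM in Nsd2ΔIE. Of these 6 markers, 4 had a lower and 2 a higher fitted level in Nsd2ΔIE (list median -0.08, log2) and none passed the test. Their part in the Retnlb difference was not tested.

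Lypd8, a glycoprotein of the colonocyte surface that is shed into the mucus and binds flagella, was the most abundant of the 10 genes by mean FPKM and nearly even across libraries (chromosome 11, 58379032 to 58390541). It was at 7180.5, 8229 and 7393 FPKM in Nsd2fl/fl and at 6853, 6943 and 5141 FPKM in Nsd2ΔIE, each Nsd2ΔIE library lying below each Nsd2fl/fl library. By FPKM it was between rank 2 and rank 5 of all genes in every library, and it took 0.576% to 0.922% of all counts. The means were 7601 ± 554 and 6312 ± 1015 FPKM (SD, n = 3 each). The edgeR fit gave a log2 fold change of -0.39 (SE 0.26, 95% interval -1.01 to 0.22, adjusted p = 0.622). This value depended on the scaling. It was -0.27 in edgeR with library totals alone and -0.28 on either log2 FPKM scale. The gap between the groups was smaller than the spread within Nsd2ΔIE. Without Nsd2ΔIE replicate 3 the log2 fold change was -0.25, and the 6 epithelial markers had a median of -0.32. The related gene Lypd8l, named after its values were seen, did not share this evenness. It was at 6.95, 134 and 5.34 FPKM in Nsd2fl/fl and at 9.42, 89.3 and 66.2 FPKM in Nsd2ΔIE, with every library of low Hoxb13 above every library of high Hoxb13.

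Lcn2, which captures bacterial siderophores and is a widely used marker of gut inflammation, was low and even (chromosome 2, 32384637 to 32387739). It was at 3.82, 5.32 and 4.34 FPKM in Nsd2fl/fl and at 4.65, 4.95 and 5.55 FPKM in Nsd2ΔIE, between 124 and 182 reads a library. The groups overlapped, and the log2 fold change was 0.03 (SE 0.23, 95% interval -0.50 to 0.57, adjusted p = 0.968). Its SD of log2 CPM, 0.20, was the smallest of the 10 genes. Lcn2 is also a granule protein of neutrophils. Of the neutrophil markers, Csf3r had between 81 and 159 reads in each library and Retnlg between 21 and 80, and both were tested without passing. S100a8 had between 0 and 8 reads, S100a9 between 0 and 9, Cxcr2 between 0 and 5 and Mmp8 between 0 and 2. The summed level of the 6 counted markers was 3.69 to 4.94 CPM in Nsd2fl/fl and 3.203 to 5.541 CPM in Nsd2ΔIE, and the part of neutrophils in the Lcn2 level was not tested.

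Duox2 and its maturation factor Duoxa2 are divergent neighbours on chromosome 2 (122279246 to 122298740 and 122298900 to 122302885). The gap between them is printed because the intervals of the pair run outward from it. It is 159 bases long on the plus strand (GRCm38.p6), with TATAAA in capitals, a match 30 bases before the Duoxa2 start site. The RefSeq promoter searched for Duox2 (122298178 to 122298477, minus strand) lies inside the Duox2 interval, so the start site used there is not at the gap.
Duox2 to Duoxa2 gap, chr2:122298741-122298899: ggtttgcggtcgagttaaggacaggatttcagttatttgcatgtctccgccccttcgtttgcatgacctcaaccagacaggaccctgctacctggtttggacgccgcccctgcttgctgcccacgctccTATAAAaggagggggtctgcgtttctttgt
Duox2, the NADPH oxidase that releases hydrogen peroxide at the apical surface, was at 18.3, 73.1 and 34.8 FPKM in Nsd2fl/fl and at 18.8, 28.1 and 20.6 FPKM in Nsd2ΔIE. Duoxa2, which Duox2 needs to leave the endoplasmic reticulum, was at 8.35, 52.1 and 39.9 FPKM in Nsd2fl/fl and at 7.90, 14.2 and 11.5 FPKM in Nsd2ΔIE. For both genes replicates 2 and 3 of Nsd2fl/fl were above all Nsd2ΔIE libraries, while replicate 1 of Nsd2fl/fl was at the level of Nsd2ΔIE replicate 1, so that the groups overlapped. In edgeR, the log2 difference was -1.05 for Duox2 (SE 0.50, adjusted p = 0.499). It was -1.74 for Duoxa2 (SE 0.64, 95% interval -3.26 to -0.22, adjusted p = 0.399). Both stayed negative in all 16 alternative fits, and Duoxa2 had p under 0.05 before adjustment in 9 of them. It missed that level in limma-voom and on both log2 FPKM scales with all libraries kept, and without Nsd2fl/fl replicate 2 or 3 or Nsd2ΔIE replicate 1 or 3. Without Nsd2fl/fl replicate 2, Duox2 was at -0.35 and Duoxa2 at -1.24. The ratio of Duox2 to Duoxa2 FPKM was 2.19, 1.40 and 0.872 in Nsd2fl/fl, against 2.38, 1.98 and 1.79 in Nsd2ΔIE, and lowest in the 2 libraries with the most Duoxa2.

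**Figure D3:**
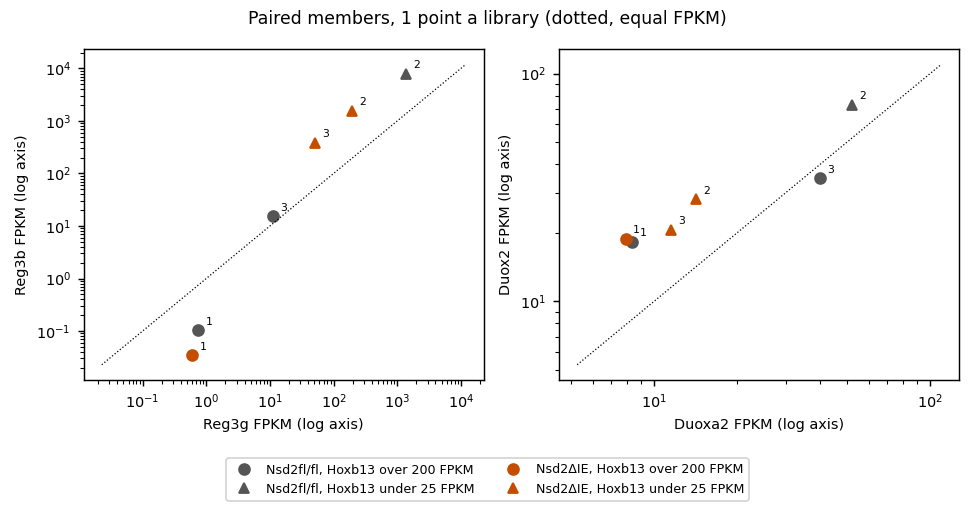
FPKM of Reg3b against Reg3g (left) and of Duox2 against Duoxa2 (right) in the 6 libraries, both axes log, with symbols by genotype and Hoxb13 level, replicate numbers beside the points and a dotted line at equal FPKM. Reg3b lies above the line in 4 libraries and below it in the 2 with 3 or fewer Reg3b reads, and Duox2 lies above the line in 5 libraries, the exception being Nsd2fl/fl replicate 3 with a ratio of 0.872.

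Nos2, the inducible nitric oxide synthase of epithelium and macrophages (chromosome 11, 78920787 to 78960226), was at 0.233, 5.09 and 1.09 FPKM in Nsd2fl/fl and at 0.211, 0.874 and 0.630 FPKM in Nsd2ΔIE. Within each genotype the libraries had the order of Duox2, with replicate 2 highest and replicate 1 lowest. Its fitted log2 difference was -2.07 (SE 1.07, adjusted p = 0.536), or -0.34 without Nsd2fl/fl replicate 2. Macrophage markers (Adgre1, Csf1r, Cd68, Mrc1, C1qa and C1qb) summed to between 206 and 278 CPM in Nsd2fl/fl, lowest in replicate 2 in which Nos2 was highest, and to between 261 and 279 CPM in Nsd2ΔIE.

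Saa3, an acute phase protein made in the gut and by macrophages and adipocytes (chromosome 7, 46711998 to 46719615), was at 0.495, 29.6 and 0.841 FPKM in Nsd2fl/fl and at 1.07, 27.9 and 12.6 FPKM in Nsd2ΔIE. The high libraries, replicate 2 of each genotype and replicate 3 of Nsd2ΔIE, were those of Reg3b and Reg3g, and the groups overlapped. The log2 fold change was 0.26 (SE 1.58, 95% interval -3.52 to 4.03, adjusted p = 0.963), 4.26 when Nsd2fl/fl replicate 2 was left out and -0.81 when Nsd2ΔIE replicate 2 was. Adipocyte markers were higher in Nsd2ΔIE, with a summed level of 14.9 to 30.0 CPM in Nsd2fl/fl and 32.3 to 72.0 CPM in Nsd2ΔIE and all 5 tested markers above 0, at a median log2 fold change of 2.43. They reached an unadjusted p under 0.05 for 2 of the 5, Fabp4 and Retn, beside 11.1% of all genes tested. Nsd2fl/fl replicate 2, with the most Saa3, had 0 reads of Adipoq, the defining adipocyte gene, and of Plin1, Lep and Retn, but it had 403 reads of Fabp4 and 658 of Cidec, and its summed level of 30.0 CPM was the highest of the Nsd2fl/fl group. Cidec, like Saa3, was higher in every library of low Hoxb13. The part of adipocytes in the Saa3 level was not tested. Saa1, a family member of the epithelium and liver, was far more abundant than Saa3 and had another order: 1519, 934 and 1032 FPKM in Nsd2fl/fl and 1481, 472 and 470.0 FPKM in Nsd2ΔIE.

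Several of these genes followed the Hoxb13 level of the library. The FPKM of 5 of the 10 did not overlap between the 3 libraries of high and the 3 of low Hoxb13, beside 21.5% of all genes tested, and 1 of the 10 did not overlap between genotypes. Reg3b, Reg3g, Saa3 and Lcn2 were higher in every library of low Hoxb13 and Reg4 in every library of high Hoxb13. For Lcn2 the gap was narrow, at 3.82 to 4.65 FPKM in the libraries of high against 4.95 to 5.55 FPKM in those of low Hoxb13. Reg3b was at 0.0342 to 15.3 FPKM in the libraries of high Hoxb13 against 385 to 7967 FPKM in those of low Hoxb13, and Saa3 at 0.495 to 1.07 against 12.6 to 29.6 FPKM. These sets were defined from the data, each mixes both genotypes, and no test was made between them or between these counts. Of the 5 colonocyte markers, Car1 and Krt20 were higher in every library of low Hoxb13, Slc26a3 and Aqp8 were higher in every library of high Hoxb13, and Car4 overlapped. Car1 was at 2809 to 5662 FPKM in the libraries of low against 130.4 to 509 FPKM in those of high Hoxb13, and Slc26a3 at 84.1 to 122 against 168 to 334 FPKM. Position of the tissue piece along the colon was not recorded, and its part in these levels was not tested.

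**Figure D4:**
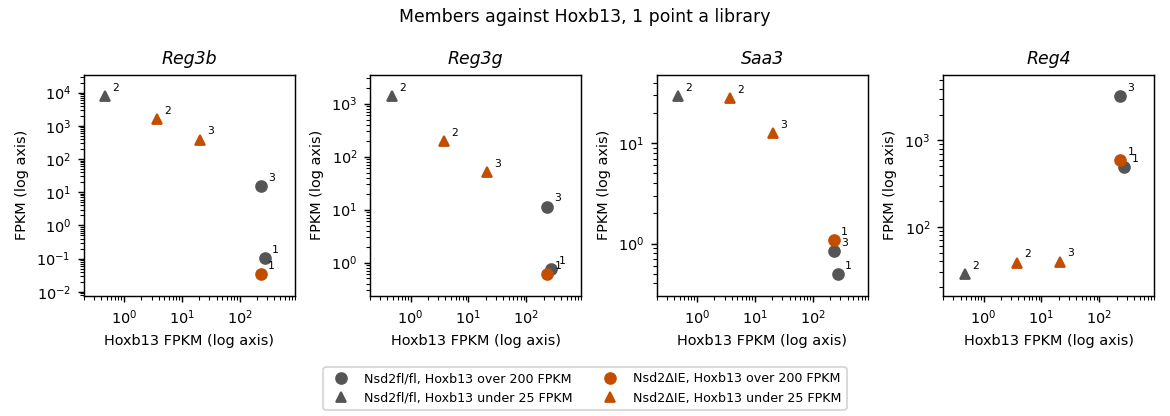
FPKM of Reg3b, Reg3g, Saa3 and Reg4 against FPKM of Hoxb13 (both axes log) in the 6 libraries, with grey for Nsd2fl/fl, orange for Nsd2ΔIE, circles for high and triangles for low Hoxb13, and replicate numbers beside the points. The 3 libraries with Hoxb13 from 0.477 to 20.6 FPKM have the highest Reg3b, Reg3g and Saa3 and the lowest Reg4, and both genotypes occur on each side.

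Between genotypes within these sets 1 genotype always has a single library, so no test was made and differences are given as Nsd2ΔIE minus Nsd2fl/fl. The only Nsd2ΔIE library of high Hoxb13 was replicate 1. The only Nsd2fl/fl library of low Hoxb13 was replicate 2, which had the highest Reg3b, Reg3g, Nos2, Duox2, Duoxa2 and Lypd8 of all libraries. For Retnlb the log2 difference was -2.30 among libraries of high and -1.88 among those of low Hoxb13, for Duoxa2 it was -1.29 and -2.22, for Duox2 -0.50 and -1.79, and for Nos2 -1.30 and -2.94. Reg3g was at -2.26 and -3.98. In Nsd2fl/fl replicate 1 and Nsd2ΔIE replicate 1, both of high Hoxb13, Duoxa2 was at 8.35 and 7.90 FPKM. Duox2 was at 18.3 and 18.8 FPKM, Nos2 at 0.233 and 0.211 FPKM and Reg3g at 0.748 and 0.604 FPKM in these libraries. For these genes the difference among libraries of high Hoxb13 therefore came mainly from Nsd2fl/fl replicate 3. Retnlb was at 517 and 273 FPKM in the same libraries. Reg3b was at -3.54 among libraries of low Hoxb13, and among those of high Hoxb13 it had 1 read in Nsd2ΔIE beside 3 and 443 in Nsd2fl/fl. Reg4, Lcn2 and Saa3 had opposite signs in the sets, at -1.19 and 0.26, 0.11 and -0.21, and 0.58 and -0.84. Lypd8 was at -0.17 and -0.65. With log2 CPM of Hoxb13 as a covariate in the edgeR fit, 6 of the 10 genes had an unadjusted p under 0.05, beside 18.1% of all genes tested, and none passed an adjusted p of 0.05. Reg4, Retnlb, Nos2, Duox2 and Duoxa2 were lower in Nsd2ΔIE at log2 fold changes of -2.01, -2.15, -1.69, -0.93 and -1.72, with adjusted p between 0.155 and 0.222, and Saa3 was higher at 1.41 (SE 0.35, adjusted p = 0.130). For Reg3b the same fit gave 0.21, the opposite sign to the fit without the covariate, and for Reg3g -0.99 (adjusted p = 0.590).

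**Figure D5:**
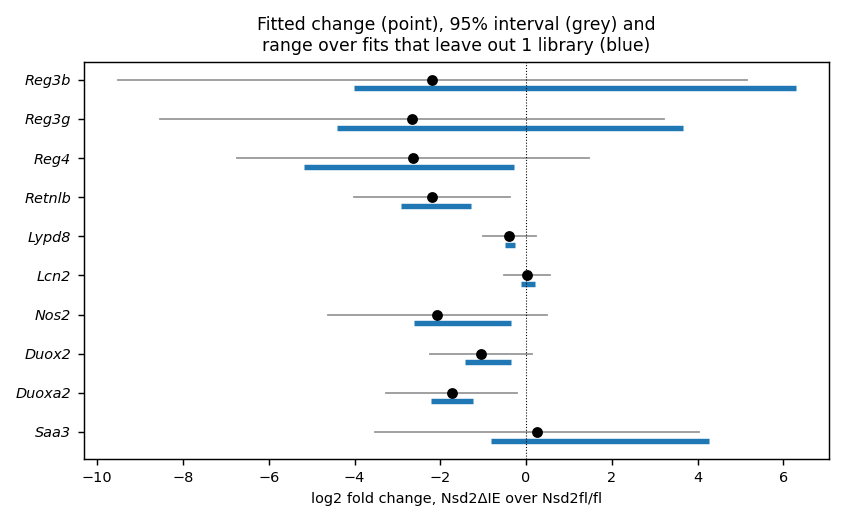
Log2 fold change of Nsd2ΔIE over Nsd2fl/fl for the 10 genes (x axis), with the edgeR estimate as a point, its 95% interval in grey and, in blue, the range of estimates when each library is left out in turn. The range crosses 0 for Reg3b (-4.01 to 6.28), Reg3g, Lcn2 and Saa3 and stays below it for Reg4, Retnlb, Lypd8, Nos2, Duox2 and Duoxa2.

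The wider families were read from lists of genes of like role. Of 25 other antimicrobial genes listed, 24 were in the files and 17 were tested, with 4 higher and 13 lower in Nsd2ΔIE, a list median of -0.35 (log2) and none past an adjusted p of 0.05. The 2 of these 17 at an unadjusted p under 0.05, beside 11.1% of all genes tested, were Sprr2a1 and Sprr2a3. Both are small proline-rich proteins, the former of which is known to act on Gram-positive bacteria in the gut. Sprr2a1 was at 75.5, 130.5 and 92.7 FPKM in Nsd2fl/fl and 55.7, 43.4 and 56.2 FPKM in Nsd2ΔIE, and Sprr2a3 at 533, 628 and 1321 against 389, 297 and 271 FPKM. They were the 2 of the 17 that did not overlap between genotypes, beside 18.7% of all genes tested. Their log2 fold changes were -1.08 (SE 0.25, adjusted p = 0.302) and -1.51 (SE 0.39, adjusted p = 0.303) in edgeR. With DESeq2 both passed, at adjusted p of 0.00539 and 0.00563, where DESeq2 passed 455 of all genes and edgeR passed 5. A further copy, Sprr2a2, was at 29.1, 27.3 and 27.7 FPKM in Nsd2fl/fl and at 34.8, 14.4 and 20.7 FPKM in Nsd2ΔIE. Its groups overlapped, with Nsd2ΔIE replicate 1 the highest library. In edgeR its log2 fold change was -0.39 (SE 0.30, adjusted p = 0.67). The Sprr2a genes are nearly identical copies, so the split of reads between them is uncertain. Among the 17 tested, 3 were higher in every library of low Hoxb13 and 9 in every library of high Hoxb13, beside 21.5% of all genes tested that did not overlap in either direction. The latter included Ang4, a goblet and Paneth cell ribonuclease that kills bacteria, at 1922, 679.6 and 8081 FPKM in Nsd2fl/fl and 1798, 137 and 912 FPKM in Nsd2ΔIE, named after its values were seen. Its highest library, Nsd2fl/fl replicate 3, was also that of Reg4 and Retnlb. Markers of small intestinal Paneth cells were low, with a summed level of 13.1 to 20.7 CPM in Nsd2fl/fl and 16.3 to 16.9 CPM in Nsd2ΔIE. Defa17 and Defa22 of that list were not among the genes counted. The 2 markers tested went opposite ways, Mmp7 higher in every library of low Hoxb13 and Lyz1 in every library of high Hoxb13.

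Of the 10 genes listed with the oxidases 8 were tested, 4 higher and 4 lower, at a list median of -0.01 (log2). None was at an unadjusted p under 0.05. The list held Gpx2 and Ido1, which are not NADPH oxidase genes, at log2 fold changes of -0.96 and 1.43. Duox1 and Duoxa1, the paralogous pair, had at most 18 and 14 reads in any library and were not tested, so that Duox2 and Duoxa2 carried nearly all reads of the family. Of 8 other acute phase genes 6 were tested, 1 higher and 5 lower, with a median of -0.36. Cfb, complement factor B, was the only gene of those 6 at an unadjusted p under 0.05, beside 11.1% of all genes tested. It was at 50.1, 39.0 and 58.5 FPKM in Nsd2fl/fl and 39.2, 39.2 and 30.9 FPKM in Nsd2ΔIE (log2 fold change -0.56, SE 0.19, adjusted p = 0.364). Of 24 cytokines, receptors, sensors and factors upstream of these genes 20 were tested, 5 higher and 15 lower, with a median of -0.21. Il22 had 12 reads in Nsd2fl/fl replicate 3 and 0 or 1 elsewhere, and Il17a, Il23a and Ifng were likewise too low to test. Stat3, which carries the interleukin 22 signal, was at 34.4, 35.5 and 34.5 FPKM in Nsd2fl/fl and 32.2, 29.2 and 30.9 FPKM in Nsd2ΔIE (log2 fold change -0.31, SE 0.11, adjusted p = 0.382). Tlr4, the lipopolysaccharide receptor, was at 4.21, 5.95 and 5.90 against 3.55, 4.11 and 3.23 FPKM (log2 fold change -0.70, SE 0.20, adjusted p = 0.317). Stat3 and Tlr4 were the 2 of the 20 at an unadjusted p under 0.05, beside 11.1% of all genes tested, and neither passed the adjusted threshold. In edgeR the unadjusted p of Stat3 was 0.0558 with upper-quartile factors and 0.117 with library totals alone. Of the 20, 5 did not overlap between genotypes, beside 18.7% of all genes tested. These were Stat3, Tlr4, Nfkbiz and Myd88, lower in Nsd2ΔIE, and Cebpb, higher.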

How the data were processed

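RNA-seq of colon tissue was read in 6 libraries, 3 Nsd2fl/fl and 3 Nsd2ΔIE, grouped by the genotype in the labels. The authors deposited, for each library, whole-number counts per gene and FPKM values. The submitters' processing notes name fastp, HISAT2, HTSeq, R 3.2.0 and the mm10 build. The annotation, the use of strand and the treatment of reads with several alignments are not given in the sources used here. Reads on overlapping or antisense genes therefore cannot be told apart. The general rule of the methods for a pair of groups is Student's test; a test for counts was used here. The methods describe male littermates and state a diet period other than that in the labels, which is used here. Nothing in the sources ties each library to a single mouse, so p-values measure the spread between these libraries.

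Counts were fitted in edgeR 4.0.16 (R 4.3.3) by the quasi-likelihood test, two-sided, after filterByExpr and TMM scaling, with Benjamini-Hochberg adjustment over 16347 genes. CPM are TMM-scaled, and levels of different genes were compared by FPKM only. No 2 libraries agreed within counting noise. Intervals of shares are exact and cover counting error only. Alternatives were other scalings, DESeq2 1.42.0, limma 3.58.1 (voom, and log2 of FPKM plus 1 or 0.1), no filter, a replicate block, a Hoxb13 covariate and leaving out each library. The named genes were all 10 members, Nsd2, Hoxb13 and listed genes at an unadjusted p under 0.05. Every other gene named with a value came from the lists and was picked after its values were seen. These were Reg1, Reg3a, Reg3d, Lypd8l, Ang4, Sprr2a2, Saa1, Duox1, Duoxa1, Gpx2, Ido1, Il22, Hoxd13, Hoxa13 and single cell type markers. Members and lists were chosen with earlier results of these data known. Sequences and coordinates are from RefSeq GRCm38.p6, and sequences were aligned in Biopython 1.88.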

Additional observations from a re-analysis of the deposited data

How the results depend on the processing

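No member passed an adjusted p of 0.05 in any of the 16 alternative fits, the lowest being 0.0632 (Duoxa2, DESeq2), where Reg3g had no adjusted p. Reg4, Retnlb, Lypd8, Nos2, Duox2 and Duoxa2 stayed lower in Nsd2ΔIE in all 16. Of 160 alternative values 147 kept their direction and 13 reversed. For Reg3b the log2 fold change, -2.19, became 0.39 with limma-voom, 0.71 on log2(FPKM + 1), 0.57 on log2(FPKM + 0.1), 0.66 with the replicate block and 0.21 with the Hoxb13 covariate, and for Lcn2, 0.03, it became -0.0005018 without the filter. Leaving out each library in turn gave -4.01 to 6.28 for Reg3b, -4.41 to 3.66 for Reg3g, -0.11 to 0.20 for Lcn2 and -0.81 to 4.26 for Saa3, the upper ends without Nsd2fl/fl replicate 2. Members at an unadjusted p under 0.05, 2 as reported, were 4 with DESeq2, 1 with limma-voom and on either FPKM scale, 4 with the replicate block, 6 with the Hoxb13 covariate, and 0 to 4 when a library was left out (0 without Nsd2fl/fl replicate 3). Non-overlapping members, 1 as reported, were 1 to 5 when a library was left out, with 21.7% to 35.8% of all genes non-overlapping at those settings (5 of 10 and 35.8% without Nsd2fl/fl replicate 1). Members with a lower fitted level, 8 as reported, were 6 to 10 over the 16 fits, and their median was -2.41 to -0.32, both summarised after the values had been seen. Over all genes, those at an unadjusted p under 0.05, 1816, became 2960 with the Hoxb13 covariate and 821 to 2683 when a library was left out, and those at an adjusted p under 0.05, 5, became 455 with DESeq2 and 3 to 5 when a library was left out. The causes were not tested. Correlations of same-numbered deviations were 0.50, 0.64 and -0.17 for replicates 1, 2 and 3. Replicate 1 of both genotypes had high Hoxb13 and replicate 2 of both had low Hoxb13. Whether the replicate numbers pair the libraries was therefore not settled. With 3 libraries a group and SEs up to 3.08, changes of several log2 units could not be resolved for Reg3b, Reg3g, Reg4 and Saa3. Counts of 3 or fewer limit Reg3b in replicate 1 of each genotype.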
